A study of Homo sapiens with 4 samples.

Results

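The thioredoxin and peroxiredoxin system was examined in cadmium-resistant breast cancer cells through 10 genes, chosen by symbol and found by Ensembl identifier among the 61541 genes of the count table. They were the thioredoxin gene TXN, the reductase gene TXNRD1, the thioredoxin-interacting protein gene TXNIP, the sulfiredoxin gene SRXN1 and the 6 peroxiredoxin genes PRDX1 to PRDX6. Each symbol matched 1 identifier, and all 10 genes passed the filter on low counts. RNA sequencing had been performed on MDA-MB-231, an established human breast cancer line. The cadmium group (2 libraries) was selected by serial passage in medium with cadmium sulfate, ending at 10 µM, and the control group (2 libraries) was the same line without treatment. No transgene or other agent is named for either group, and how many separately selected lines the cadmium libraries stand for is not given in the sources used here. Cadmium 1 and cadmium 2 keep their labelled numbers, and the control libraries are called control 2 and control 3 after the numbers in the count table, which differ from those in the sample labels.

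Thioredoxin is a small protein that reduces disulfide bonds in other proteins, and thioredoxin reductase returns it to its reduced form with electrons from NADPH. Peroxiredoxins break down hydrogen peroxide through a reactive cysteine, and most of them depend on thioredoxin for their next round. Sulfiredoxin repairs peroxiredoxins that have been overoxidized, and TXNIP binds and inhibits thioredoxin. Cadmium binds protein thiols and lowers the reducing capacity of cells.

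Of the 10 genes, TXNIP alone passed the test, and it rose 1.75-fold in cadmium-resistant cells (DESeq2 Wald test, Benjamini-Hochberg adjusted p = 0.0804, threshold 0.1). No gene of the system was called lower. Among all 19816 genes tested, 0.601% were called higher and 0.535% lower, which is 1.14% in either direction, so 1 gene in 10 called higher stands beside that background. At an unadjusted p-value below 0.05, DESeq2, edgeR and limma voom each singled out 1 of the 10 genes, which was TXNIP. Over all genes this level was met by 3.04% on the higher and 3.88% on the lower side in DESeq2, and by 7.83% in edgeR and 7.40% in limma voom in either direction. For TXNIP the adjusted p-value was 0.620 with edgeR and 0.669 with limma voom, and neither tool called any gene of the whole table. In bulk RNA, fewer cells with a transcript and less of it per cell cannot be told apart. The median log2 fold change of the 10 genes was -0.02, and it was -0.02 over all genes tested, with 4 genes of the system above and 6 below zero. Both cadmium libraries lay above both controls for 1 of the 10 genes and below both for 2, against 20.3% and 19.9% of all genes tested.

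The libraries held between 51934729 and 61916007 reads assigned to genes. Among 12924 genes whose normalized count averaged at least 100, the median difference between libraries of a group, as an absolute log2 ratio, was 0.39 for the controls and 0.11 for the cadmium libraries. For the 10 genes these medians were 0.35 and 0.19. Control 2 was the higher control for 9 of the 10 genes, the exception being PRDX6. The markers fixed for the line (VIM, CD44, EGFR, AXL and CAV1) had between 20318 and 98037 reads per library. Markers of other cell types were sparse, with at most 234 reads for a leukocyte gene, 875 for a fibroblast gene and 792 for an endothelial gene, and CD3E at 0 in all 4 libraries. Of the 5 genes listed as low in the line, the hormone receptor genes ESR1 and PGR had at most 20 and 30 reads, but ERBB2 was not low, with 4606 to 7158 reads. The epithelial genes EPCAM and CDH1 differed between the controls in opposite directions. EPCAM had 2547 reads in control 2 and 623 to 778 elsewhere, CDH1 had 578 in control 3 and 113 to 170 elsewhere, and their part in the differences between the controls was not tested. With 2 libraries against 2, an exact permutation test of a single gene cannot give a two-sided p below 0.333, so p-values here come from the fit across all genes, and they measure the spread between these libraries, which may be technical in part.

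**Figure D1:**
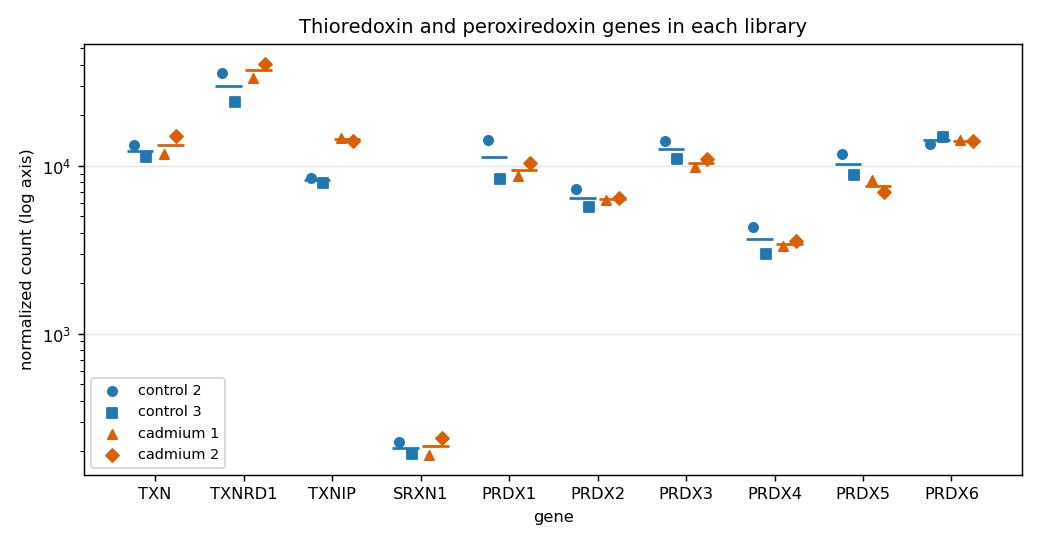
Normalized count (log axis) of the 10 genes in each library, with circles and squares for the control libraries, triangles and diamonds for the cadmium libraries, and short lines for the group means (n = 2 each). TXNIP is the gene whose cadmium values, 14670 and 14055, stand apart from its control values, 8475 and 7941, by much more than either pair differs, while SRXN1 lies far below the rest.

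TXNIP (ENSG00000265972, chromosome 1, 145992435 to 145996579, minus strand, hg38) encodes an arrestin-fold protein that binds reduced thioredoxin and also limits glucose uptake. Its normalized count, which is the read count divided by the size factor of the library, reached 8475 and 7941 in control 2 and control 3, and 14670 and 14055 in cadmium 1 and cadmium 2. Both cadmium libraries were therefore well above both controls, and the libraries of each group were close together. The group means were 8208 ± 378 in control and 14363 ± 434.5 in resistant cells (mean ± SD of 2). The log2 fold change was 0.81 ± 0.24 (SE), and its 95% Wald interval ran from 0.34 to 1.28, which is 1.26-fold to 2.43-fold. Taking each cadmium library over each control, 4 ratios in all, the log2 ratio stayed between 0.73 and 0.89. TXNIP was also among the steadier genes within a group, since 13.3% of genes differed less between the controls and 29.3% differed less between the cadmium libraries. With 1 library left out, the log2 fold change only moved between 0.75 and 0.85. The DESeq2 adjusted p-value, by contrast, depended strongly on which library was left out. A group left with 1 library is taken to vary like the other group. The controls differed more than the cadmium libraries, with median absolute log2 ratios of 0.39 and 0.11 over genes averaging at least 100. P-values of these fits therefore say little about a single gene and are not given.

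The promoter of TXNIP is shown because it is the gene that passed the test. The 250 bases before its RefSeq start (GRCh38.p14, chr1:145996580-145996829, minus strand) overlap no annotated TXNIP exon in the count table. Capitals mark an MRE core, the short sequence bound by the metal-responsive factor MTF-1, and after it a ChoRE, the paired element through which glucose-responsive factors act:
TXNIP: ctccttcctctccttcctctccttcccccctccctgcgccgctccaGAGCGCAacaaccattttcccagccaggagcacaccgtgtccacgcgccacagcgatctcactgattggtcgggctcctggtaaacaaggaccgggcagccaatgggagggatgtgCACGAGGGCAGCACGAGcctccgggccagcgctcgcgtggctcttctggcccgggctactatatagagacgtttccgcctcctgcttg
The MRE core was searched as TGCACNC or TGCGCNC and the ChoRE as CACGNG and again CACGNG after 5 bases of any kind, on both strands. The ChoRE letters, 88 to 72 bases before the start, were found in 0.0456% of the 35116 windows of the same kind, in 16 genes, and the MRE core letters were found in 24.8%. Of the other 15 genes with ChoRE letters none was called, though 3 of them had no adjusted p-value for want of reads. The motifs were chosen after the values were seen, so the rarity of the ChoRE letters is not evidence about TXNIP. A match of letters is a description and does not show that a factor binds there.

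The pattern of TXNIP over the 4 libraries was compared with that of 9955 other genes whose normalized count averaged at least 500, by the distance between centred log2 values. The 5 nearest genes were HOXB9, TMC8, CNPY3, LAMB3 and TIMM10B, at distances of 0.09 to 0.13. LAMB3, a laminin chain gene, had 23647 and 24789 normalized counts in control cells against 41110 and 41526 in resistant cells (DESeq2, adjusted p = 0.0986). The nearest gene, HOXB9, had values of 1234 and 1088 against 1964 and 1910 (DESeq2, adjusted p = 0.247). With 4 libraries such likeness says little beyond a shared direction and size.

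TXN (ENSG00000136810, chromosome 9, 110243810 to 110256507, minus strand) encodes cytosolic thioredoxin. Its normalized count was 13337 (control 2), 11209 (control 3), 11830 (cadmium 1) and 14959 (cadmium 2). The cadmium values lay on either side of control 2, so the groups overlapped. The log2 fold change was 0.13 ± 0.28 (SE), its 95% interval ran from -0.42 to 0.67, and the DESeq2 adjusted p-value was 1.00. Its sign turned without control 3, to -0.01, and without cadmium 2, to -0.06.

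TXNRD1 (ENSG00000198431, chromosome 12, 104215779 to 104350307, plus strand) encodes the cytosolic selenoprotein reductase and had the highest counts of the 10 genes. Its normalized count was 35921 (control 2), 24104 (control 3), 33401 (cadmium 1) and 40639 (cadmium 2). Control 2 lay between the cadmium values, and control 3 was the lowest of the 4 libraries. The log2 fold change was 0.30 ± 0.31 (SE, 95% interval -0.31 to 0.92, DESeq2 adjusted p-value 1.00). Without control 2 it was 0.62, and without control 3 it was 0.03, so the control library used set the size of this difference. For scale, HMOX1, a well-known target of the same stress regulator NRF2, had a log2 fold change of 2.48 (DESeq2, adjusted p = 1.58e-08) in these libraries, and SLC7A11, the cystine transporter gene and also a target, had one of 1.87 (DESeq2, adjusted p = 1.77e-05). GCLM, a further target, had one of 0.23 with an adjusted p-value of 1.00, and NQO1 one of 0.83 with an adjusted p-value of 0.365.

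Promoter letters of the antioxidant response element, ARE, the site of NRF2, were searched as TGACNNNGC on both strands. Windows were found for 8 of the 10 genes, 11 windows in all, with none for PRDX1 and PRDX6. TXNRD1 was the only gene with ARE letters among the 8, in both of its windows, and 10.9% of all 35116 windows held them. All 250 bases of the second TXNRD1 window lie in exons of TXNRD1 itself, those of the first in none. The first TXNRD1 window (GRCh38.p14, chr12:104215529-104215778, plus strand) is shown with an MRE core and then the ARE letters in capitals, because it holds both:
TXNRD1: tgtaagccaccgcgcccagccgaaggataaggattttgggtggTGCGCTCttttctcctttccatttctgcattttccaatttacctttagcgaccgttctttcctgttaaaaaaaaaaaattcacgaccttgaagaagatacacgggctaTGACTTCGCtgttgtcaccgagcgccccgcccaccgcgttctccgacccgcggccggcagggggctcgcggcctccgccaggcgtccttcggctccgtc
The ARE letters lay 99 to 91 bases before the start, and those of the second window, not shown, 102 to 94 bases before its start. Which of these matches NRF2 binds, if either, was not tested. MRE core letters were found in 6 of the 11 windows, beside 24.8% of all 35116 windows, and the difference was not tested. They belonged to 5 of the 8 genes, TXN, TXNRD1, TXNIP, PRDX2 and PRDX5, with TXNIP counted in 2 windows. The second TXNIP window and the second PRDX5 window have 19 and 165 bases in exons of the gene itself. Genes with such letters included TXNIP and genes that did not pass the test.

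Ratios within a library do not depend on the size factors. The level of TXNIP relative to TXN, both as RPKM, the reads per kilobase of exon scaled to the library total, was 0.178 (control 2), 0.199 (control 3), 0.348 (cadmium 1) and 0.263 (cadmium 2). Both cadmium libraries were higher than both controls, by 0.69 on the log2 scale on average (exact permutation test, two-sided p = 0.333, the smallest possible with 2 against 2). The inhibitor transcript was thus higher relative to thioredoxin in both cadmium libraries, though they differed from each other because TXN was higher in cadmium 2. The level of TXNIP relative to TXNRD1 was 0.439 and 0.613 in the controls and 0.818 and 0.644 in the cadmium libraries, where control 3 and cadmium 2 nearly met. Such a separation was not particular to TXNIP. TXNRD1 relative to TXN and TXN relative to PRDX1 were also higher in both cadmium libraries, by 0.20 and 0.33 on the log2 scale. SRXN1 relative to PRDX1 overlapped between the groups.

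Peroxiredoxins 1 to 4 are the typical 2-cysteine enzymes that form dimers. PRDX1 and PRDX2 in the cytosol and PRDX3 in mitochondria use thioredoxin, and PRDX4 lies in the endoplasmic reticulum. PRDX5 is found in mitochondria, peroxisomes and cytosol, and PRDX6 has a single reactive cysteine and takes its electrons from glutathione rather than thioredoxin. None of the 6 genes passed the DESeq2 test, nor did any pass edgeR or limma voom, and 0 had an unadjusted p-value below 0.05 in any of these tools. The 6 log2 fold changes ran from -0.43 for PRDX5 to -0.01 for PRDX6. Over the 6 genes the 95% intervals of the log2 fold change reached no lower than -0.99, for PRDX5, and no higher than 0.50, for PRDX2 and PRDX4.

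PRDX5 (ENSG00000126432, chromosome 11, 64318121 to 64321811) had the lowest fold change. Its normalized count was 11725 (control 2), 8780 (control 3), 8204 (cadmium 1) and 7026 (cadmium 2). Both cadmium libraries were below both controls, but control 3 was nearer to cadmium 1 than to control 2. The log2 fold change was -0.43 ± 0.29 (SE, 95% interval -0.99 to 0.13, DESeq2 adjusted p-value 0.906). It was -0.21 without control 2 and -0.63 without control 3.

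PRDX3 (ENSG00000165672, chromosome 10, 119167720 to 119178812) was the other gene with both cadmium libraries lowest. Its values of 9849 in cadmium 1 and 10920 in cadmium 2 were set against 14136 in control 2 and 11013 in control 3, so cadmium 2 and control 3 were nearly equal. The log2 fold change was -0.28 ± 0.27 (SE, DESeq2, adjusted p = 1.00). It was -0.46 without control 3, and -0.09 without control 2.

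PRDX1 (ENSG00000117450, chromosome 1, 45510914 to 45542732) varied most between the controls, from 14215 normalized counts (control 2) down to 8396 (control 3). The cadmium libraries had 8645 and 10347, between the controls. The log2 fold change of -0.25 (standard error 0.34, DESeq2 adjusted p-value 1.00) depended on the control used. It was 0.18 without control 2 and -0.59 without control 3. PRDX4 (ENSG00000123131, chromosome X, 23664262 to 23686397) behaved alike, with 4323 and 3001 in the controls and 3308 and 3561 in the cadmium libraries, and a log2 fold change of -0.09 that was 0.19 without control 2 and -0.34 without control 3.

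PRDX2 (ENSG00000167815, chromosome 19, 12796820 to 12801800) had normalized counts of 7236 and 5706 in the controls, with the cadmium libraries at 6236 and 6476 between them. Its log2 fold change was -0.03 with a 95% interval from -0.55 to 0.50. PRDX6 (ENSG00000117592, chromosome 1, 173477330 to 173488815) differed least between the cadmium libraries of the 10 genes, with 13556 and 14760 in the controls and 14164 and 14029 in the cadmium libraries. Its log2 fold change was -0.01 (95% interval -0.48 to 0.47), and 7.01% of genes differed less between the cadmium libraries. For PRDX2 and PRDX6 the sign of so small a value turned with upper-quartile scaling, with the length trend removed and with protein-coding genes only.

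Summed over the 6 peroxiredoxin genes, the normalized count was 65190 (control 2), 51654 (control 3), 50406 (cadmium 1) and 52358 (cadmium 2), so only control 2 stood apart. In RPKM, PRDX5 made up 35.9% and 34.9% of the peroxiredoxin total in the controls and 33.4% and 28.4% in the cadmium libraries, lower in both. PRDX2 went the other way, with shares of 9.36% and 9.58% in the controls and 10.7% and 11.1% in the cadmium libraries. PRDX4 had shares of 6.13% and 5.53% against 6.24% and 6.68%. A share also depends on the other genes in the total. The normalized counts of PRDX2 and PRDX4 in both cadmium libraries lay between those of the controls, so their higher shares were not higher counts. Shares of PRDX1, PRDX3 and PRDX6 overlapped between the groups.

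Ordered by RPKM in control cells, TXN came first at 213 ± 17.3 and PRDX5 second at 209 ± 33.8 (SD, n = 2). PRDX1 followed at 117 ± 38.1, PRDX6 at 108 ± 11.0 and TXNRD1 at 78.2 ± 18.6. PRDX3 had a level of 65.2 ± 8.76, PRDX2 one of 55.8 ± 7.02, TXNIP one of 40.02 ± 0.170 and PRDX4 one of 34.5 ± 7.42. Neighbours in this order differed by less than 2 SD of the more variable one, apart from PRDX5 above PRDX1, PRDX2 above TXNIP and PRDX4 above SRXN1, and 9 of the 10 genes had a mean level above 96.0% of all genes with a read. In cadmium-resistant cells TXN was again first, at 239 ± 36.3, and TXNIP stood at 72.0 ± 3.15, above PRDX2 at 56.4 ± 0.744 and PRDX3 at 55.5 ± 3.30. Exon length in these levels is the summed length over all annotated transcripts, which lowers the level of genes with many unused exons.

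SRXN1 (ENSG00000271303, chromosome 20, 646615 to 653200, minus strand) encodes sulfiredoxin and was by far the lowest, with 238 and 181 reads in the controls and 190 and 244 in the cadmium libraries. For SRXN1 the log2 fold change was 0.04 ± 0.375 (SE, 95% interval -0.69 to 0.78, DESeq2 adjusted p-value 1.00). These counts cover little of the gene. Of its 2528 exon bases, 2292 (90.7%) are shared with ENSG00000270299, a readthrough gene on the same strand, and reads touching 2 genes were dropped by the counting, which left 236 bases. The readthrough gene itself had at most 4 reads in a library. The level of SRXN1, 1.45 ± 0.1004 in control and 1.54 ± 0.241 in resistant cells (mean ± SD of 2), is therefore not comparable with the others, and its fold change rests on those bases.

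PRDX1 shared 29.8% of its exon bases with MMACHC on the other strand and PRDX2 shared 12.1% with ENSG00000267062, also on the other strand. The other 7 genes shared none. Reads mapping to several places were also dropped, and 8 of the 18 listed pseudogenes of TXN and the peroxiredoxins had a read, at most 0.887% as many as the parent gene.

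To see whether genes nearby differed alike, each gene was set beside the 40 nearest genes whose normalized count averaged at least 100, or 29 for SRXN1 near a chromosome end. TXNIP lay 0.79 above its neighbours on the log2 scale, whose median log2 fold change was 0.02, and 1 of the 40 was higher than TXNIP. TXNRD1 lay 0.36 above a neighbour median of -0.06, with 2 of the 40 higher. PRDX5 and PRDX1 lay in stretches that were lower as a whole. The neighbours of PRDX5 had a median of -0.34, against -0.43 for PRDX5 itself, and those of PRDX1 had a median of -0.32, against -0.25 for PRDX1. PRDX5 and PRDX1 were thus within 0.09 and 0.07 of the genes around them, and 27 and 12 of 40 neighbours were higher. PRDX3 lay 0.19 below its neighbours, and the remaining genes lay within 0.12 of theirs.

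**Figure D2:**
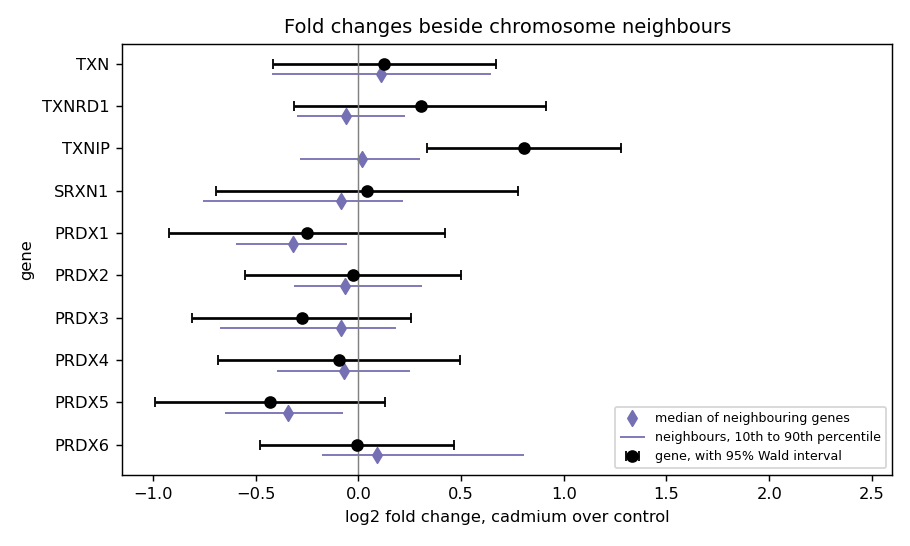
Log2 fold change of cadmium over control for each gene (black points, with 95% Wald intervals) and, just below each, the median of its chromosome neighbours (diamonds) with the range from the 10th to the 90th percentile. TXNIP at 0.81 is the only gene whose interval excludes zero, and the diamonds of PRDX1 and PRDX5, at -0.32 and -0.34, lie close to the genes themselves.

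The same comparison was made between the controls. The log2 ratio of control 3 over control 2 was -0.76 for PRDX1 and -0.57 for the median of its neighbours. For PRDX5 it was -0.42 and -0.53, and for PRDX4 it was -0.53 and -0.31. TXNRD1 differed between the controls by -0.58, while its neighbours had a median of -0.04. The difference between the control libraries at PRDX1 and PRDX5 was therefore found in the surrounding genes as well, and that at TXNRD1 was not.

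**Figure D3:**
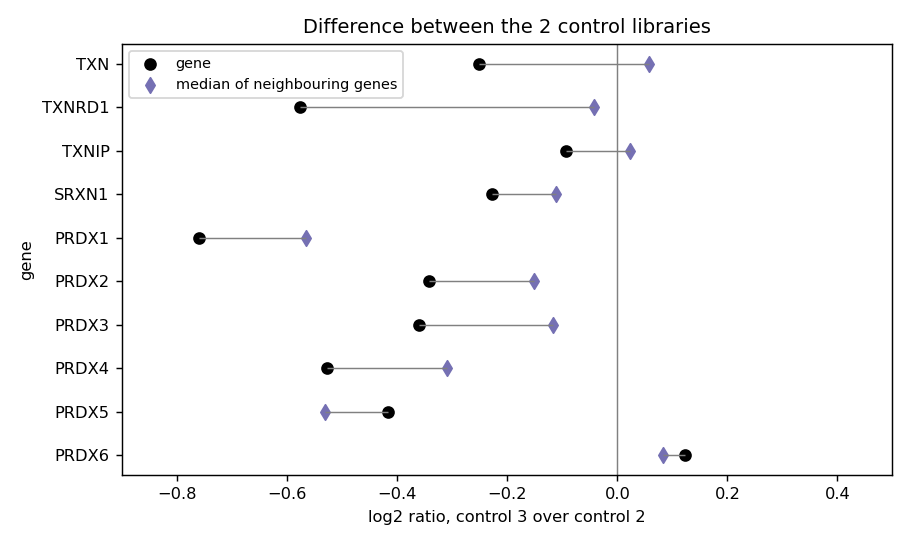
Log2 ratio of control 3 over control 2 for each gene (black points) and for the median of its chromosome neighbours (diamonds), joined by a grey line. PRDX1 at -0.76 and PRDX5 at -0.42 are matched by neighbour medians of -0.57 and -0.53, whereas TXNRD1 at -0.58 stands apart from a neighbour median of -0.04.

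**Figure D4:**
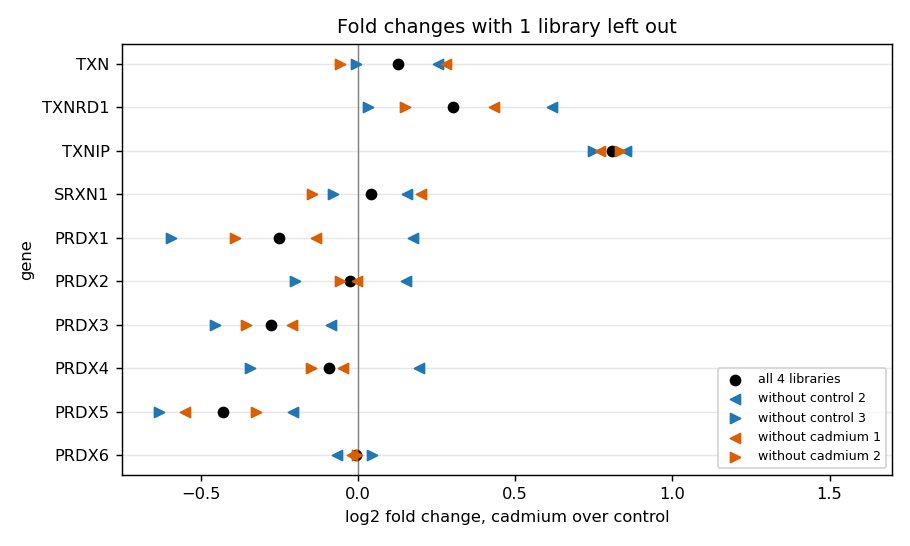
Log2 fold change of cadmium over control for each gene with all 4 libraries (black) and with 1 library left out (blue for a control, orange for a cadmium library). TXNIP stays between 0.75 and 0.85, while PRDX1 runs from -0.59 to 0.18 and TXNRD1 from 0.03 to 0.62 according to which control is used.

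Around these 10 genes, 42 related redox genes were examined, namely mitochondrial and other thioredoxin-fold proteins, glutaredoxins, methionine sulfoxide reductases, sestrins, ribonucleotide reductase subunits, TXNIP paralogs and their regulators. DESeq2 called 0 of the 42 higher and 0 lower, with 3 higher and 2 lower at an unadjusted p-value below 0.05, beside 3.04% and 3.88% of all genes. With edgeR 0 were called, with 2 higher and 2 lower at that level, and with limma voom 0 were called, with 3 higher and 1 lower. Their median log2 fold change was -0.04. Both cadmium libraries lay above both controls for 10 of the 42 and below them for 6, beside 20.3% and 19.9% of all genes.

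SESN2 and SESN3, sestrins that respond to stress and restrain mTORC1, had the highest log2 fold changes of the 42. SESN2 had normalized counts of 879 and 1202 in the controls and 2402 and 1595 in the cadmium libraries. Its log2 fold change was 0.94 ± 0.345 (SE, DESeq2, adjusted p = 0.284). SESN3 had 256 and 553 against 718 and 842, with a log2 fold change of 0.95 (DESeq2, adjusted p = 0.572), and its controls differed more than 2-fold. BACH1, a repressor of NRF2 target genes, had 2085 and 1746 against 3546 and 2460 and a log2 fold change of 0.65 (DESeq2 adjusted p-value 0.645). For these 3 genes the cadmium libraries were higher than both controls without passing the test.

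On the lower side, RRM2, the regulated subunit of ribonucleotide reductase, had normalized counts of 20032 and 11063 in the controls and 7796 and 9684 in the cadmium libraries. This was a log2 fold change of -0.83 (DESeq2, adjusted p = 0.513). MSRB2, a mitochondrial methionine sulfoxide reductase, had 1302 and 950 against 636 and 733, with a log2 fold change of -0.72 (DESeq2, adjusted p = 0.513). TXNL4A, a thioredoxin-fold protein of the spliceosome, had a log2 fold change of -0.74, but control 3 at 1890 lay between the cadmium values of 1874 and 1983.

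None of the direct partners and paralogs passed the test. The mitochondrial pair TXN2 and TXNRD2 had log2 fold changes of -0.08 and -0.27, and TXNRD3, a reductase best known from testis, had one of -0.60 (DESeq2, adjusted p = 0.835). GSR, glutathione reductase, had one of -0.34, with 4852 and 3963 against 3180 and 3787. GLRX, cytosolic glutaredoxin, had one of 0.52, with 1271 and 1646 against 2167 and 2012 (DESeq2, adjusted p = 0.776). NFE2L2, which encodes NRF2, and KEAP1, its inhibitor, had log2 fold changes of -0.12 and -0.13. ARRDC4, the closest paralog of TXNIP, was low and uneven, with normalized counts of 187 and 27.6 in the controls and 107 and 71.1 in the cadmium libraries. Its log2 fold change was -0.28 ± 0.82 (SE), so a change of the size seen in TXNIP was not detectable there.

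**Figure D5:**
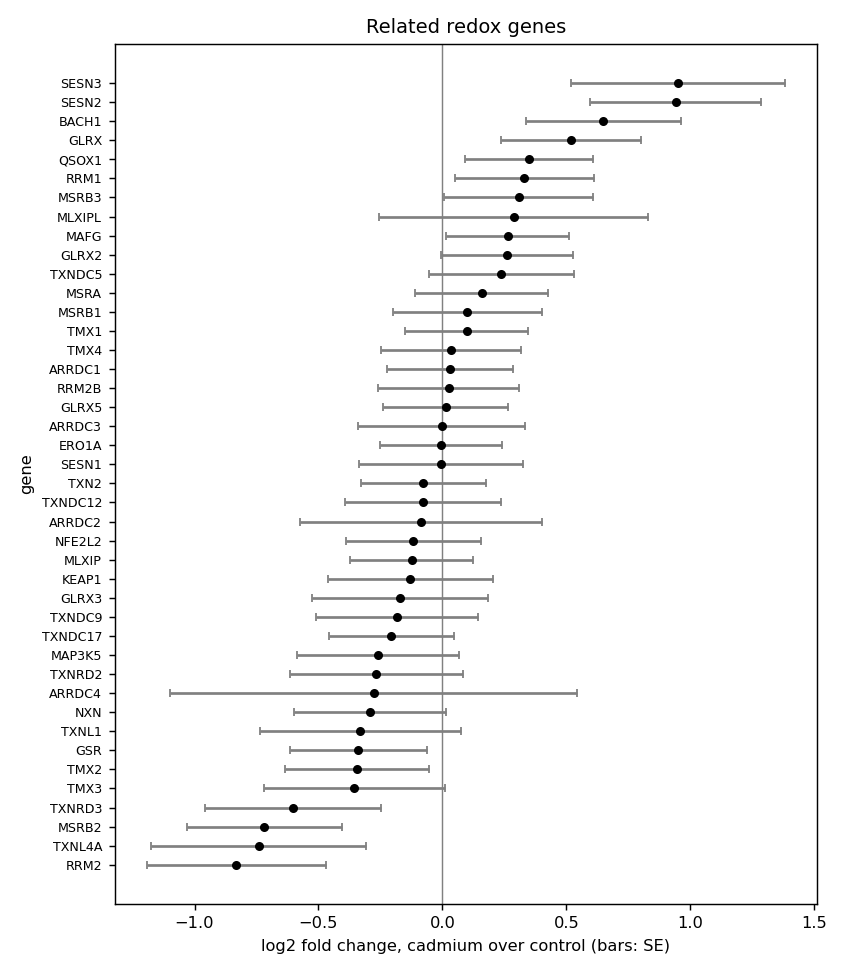
Log2 fold change of cadmium over control for the 42 related redox genes, ordered by value, with bars for the standard error. SESN3 and SESN2 stand highest at 0.95 and 0.94 and RRM2 lowest at -0.83, and none of the 42 passed the test.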

How the data were processed

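RNA-seq libraries from 2 control and 2 cadmium-resistant MDA-MB-231 cultures were analysed. Per the file header and the study's methods, the authors trimmed reads with bbduk, used hisat2 for alignment to hg38 and counted reads over Ensembl genes by featureCounts 2.0.1 at default settings. Each deposited value is an unnormalized read count of a gene, taken without regard to strand and with multi-mapping and multi-gene reads dropped. Of counts from 1 to 20, 71.1% were even, as when both mates of a pair are counted.

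Groups came from the sample labels. DESeq2 1.42.0 was fitted to all genes (design: group, Wald test, adjusted p below 0.1). The study names DESeq2, while the design and the threshold, which is the tool's default, were chosen here. Independent filtering set aside genes whose average fell under 7.69 normalized reads. Other fits used edgeR 4.0.16, limma 3.58.1 (voom), other scalings and filters, halved counts and leaving out each library. Leaving a library out leaves 1 in its group, which is then assumed to vary like the other group. The genes and lists were chosen with earlier results of these data known. Named related genes were those with the 3 lowest p-values in each direction and direct partners or paralogs. Motifs were chosen after values were seen, and promoters came from RefSeq (GRCh38.p14). Scripts were tested on simulated data.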

Additional observations from a re-analysis of the deposited data

How the results depend on the processing

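No paired analysis was possible because it is not known which control column belongs to which label. The labels give 1 and 2 in both groups, but the columns read 2 and 3 for control and 1 and 2 for cadmium and so share 1 number. TXNIP kept its direction in every setting run. With all 4 libraries, DESeq2 also called it with other scalings, counts halved, protein-coding genes only and at least 10 counts in 2 libraries. Adjusted p-values of the DESeq2 Wald test in these settings ran from 0.00358 to 0.0869. Its log2 fold change was 0.81 with edgeR, limma voom and without independent filtering, where it was not called (adjusted p = 0.620, 0.669 and 0.136), and ran from 0.75 to 0.85 with 1 library left out. The number of the 10 genes called higher, 1 in DESeq2, was 0 in those 3 settings and at an adjusted p below 0.05, and 0 to 2 with 1 library left out. The number called lower was 0 to 4 with 1 library left out, the 4 being PRDX1, PRDX3, PRDX4 and PRDX5 without control 3. Of the related redox genes, 0 to 8 were called higher and 0 to 14 lower, the highest counts again without control 3. Over all genes, edgeR and limma voom called 0 higher and 0 lower. With 1 library left out, 9 to 2678 were called higher and 5 to 3511 lower, the lowest counts without a cadmium library. The highest counts over all genes came without control 3. A group left with 1 library is taken to vary like the other group. The controls differed more than the cadmium libraries, with median absolute log2 ratios of 0.39 and 0.11 over genes averaging at least 100. Calls with 1 library left out therefore say little about a single gene. The cause of these counts was not tested, nor was the smaller number of libraries by itself. Upper-quartile scaling gave 152 higher and 88 lower calls against 119 and 106.

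Signs turned for small values. PRDX2 was at 0.035 with upper-quartile scaling, 0.042 with the trend on gene length removed and 0.01 with protein-coding genes only, and PRDX6 was at 0.053, 0.057 and 0.026 in these settings. With 1 library left out, the log2 fold change ran from -0.056 to 0.28 for TXN, 0.032 to 0.62 for TXNRD1, -0.15 to 0.20 for SRXN1, -0.59 to 0.18 for PRDX1, -0.20 to 0.15 for PRDX2, -0.46 to -0.087 for PRDX3, -0.34 to 0.19 for PRDX4, -0.63 to -0.21 for PRDX5 and -0.068 to 0.045 for PRDX6. The cause of these turns was not tested. With counts halved, the standard error went from 0.375 to 0.411 for SRXN1 and from 0.24 to 0.23 for TXNIP.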
